A study of Mus musculus with 2 samples.

Results

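The 8 genes described here encode enzymes of polyamine synthesis, the antizymes that hold the first of these enzymes in check, and the inhibitors of the antizymes. They were taken by symbol from the 50686 genes of a single-cell count matrix of the adult mouse testis, all 8 were present once, and together they received 98551 UMIs, or 0.171% of the total. Testis tissue of 2 wild-type C57Bl/6J Crl littermates, 8 weeks of age, was dissociated, a piece of the organ rather than the whole, and each mouse gave 1 droplet library of 3′ transcript ends. There was 1 condition and no treatment, so the comparisons are between cell clusters, with the mouse as the replicate (n = 2 mice throughout), and between the 2 animals. Depth was 27450497 UMIs in 1237 cells of mouse 1 and 30302332 UMIs in 1315 cells of mouse 2.

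Polyamines are small positively charged molecules that bind nucleic acids and are needed for growth and for sperm formation. Odc1, ornithine decarboxylase, makes putrescine from ornithine. Amd1, S-adenosylmethionine decarboxylase, supplies the aminopropyl donor, and Srm, spermidine synthase, joins both products into spermidine. The antizymes encoded by Oaz1, Oaz2 and Oaz3 bind ornithine decarboxylase and block it, and the antizyme of Oaz1 carries it to the proteasome without ubiquitin. Azin1 and Azin2 encode antizyme inhibitors, relatives of ornithine decarboxylase that bind antizyme but do not decarboxylate ornithine. Oaz3 is known as the antizyme of haploid germ cells. Antizyme is translated only if the ribosome shifts its reading frame at a stop codon, and polyamines promote the shift.

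The 3 antizyme transcripts each carry that stop codon inside the coding sequence. It is shown here because it is what the 3 genes have in common. Each window holds 63 bases of a coding exon of GRCm38, taken from the GENCODE transcripts, with the TGA in capitals. The Oaz1 window is at chr10:80828265-80828327 on the plus strand, the Oaz2 window at chr9:65686242-65686304 on the plus strand and the Oaz3 window at chr3:94436002-94436064 on the minus strand.
Oaz1: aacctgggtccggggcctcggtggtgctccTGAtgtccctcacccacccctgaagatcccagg
Oaz2: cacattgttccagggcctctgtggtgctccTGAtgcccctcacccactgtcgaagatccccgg
Oaz3: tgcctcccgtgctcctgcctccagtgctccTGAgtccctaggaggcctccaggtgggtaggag
At each of them the annotated coding sequence leaves out 1 base and continues in the other frame, for 159 codons in Oaz1 and 157 codons in Oaz2 and in Oaz3. Oaz1 and Oaz2 had the same base at 51 of 63 positions, whereas Oaz3 shared 22 of 63 with either. The run of bases around the stop codon that is the same in all 3 windows is gtgctccTGA, of 10 bases.

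Cells were grouped by K-means on all expressed rows except the 8 genes and a wider list of polyamine genes, so that these genes did not decide the groups, although genes that vary with them did. Of the 9 clusters, 6 held 2533 cells, and they are numbered by their median place in pseudotime, an order of the cells by similarity of their transcriptomes. Cluster 1 (163 cells) was early spermatocyte-like, with 8 of 12 markers raised, but the pachytene marker Piwil1 was among its leading genes. Cluster 2 (526 cells) was pachytene or later spermatocyte-like, with 9 of 12 markers raised. Clusters 3 (690 cells) and 4 (449 cells) were round spermatid-like, the former on only 3 of 12 markers. Clusters 5 (197 cells) and 6 (508 cells) were elongating or condensing spermatid-like, with 13 of 13 markers raised in each. Cluster 5 also had 5 of 12 round spermatid markers raised, and cluster 6 had 0. Median UMIs per cell were 16823 to 23893 in clusters 1 to 5, but 11229 and 12439 in cluster 6. The remaining 19 cells formed Sertoli-like (7), spermatogonium-like (7) and Leydig-like (5) clusters. Levels are given as CPM, the UMIs of a gene per 1000000 UMIs summed over the cells of a cluster in 1 mouse. Since UMIs are counted at transcript ends, they were not divided by transcript length.

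The antizyme transcripts changed places along spermatogenesis. Oaz3 rose from cluster 2 to cluster 6 until it made up nearly all antizyme UMIs. In CPM, Oaz2 was highest in clusters 1, 2 and 5 and low in cluster 6. Oaz1 was, in CPM, highest in cluster 1 among the 6 large clusters. Among the partners of the antizymes, Azin2 rose with Oaz3, Azin1 was lost in cluster 6, and Odc1 was in CPM 2.28-fold and 2.05-fold higher in cluster 1 than in cluster 6 in mouse 1 and mouse 2. For Oaz1, Oaz2 and Odc1 the direction between early and late clusters turned with the scaling, as given further on. Among the 6 large clusters, Srm and Amd1 were highest in cluster 1 and close to the limit of detection in clusters 4 to 6.

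**Figure D1:**
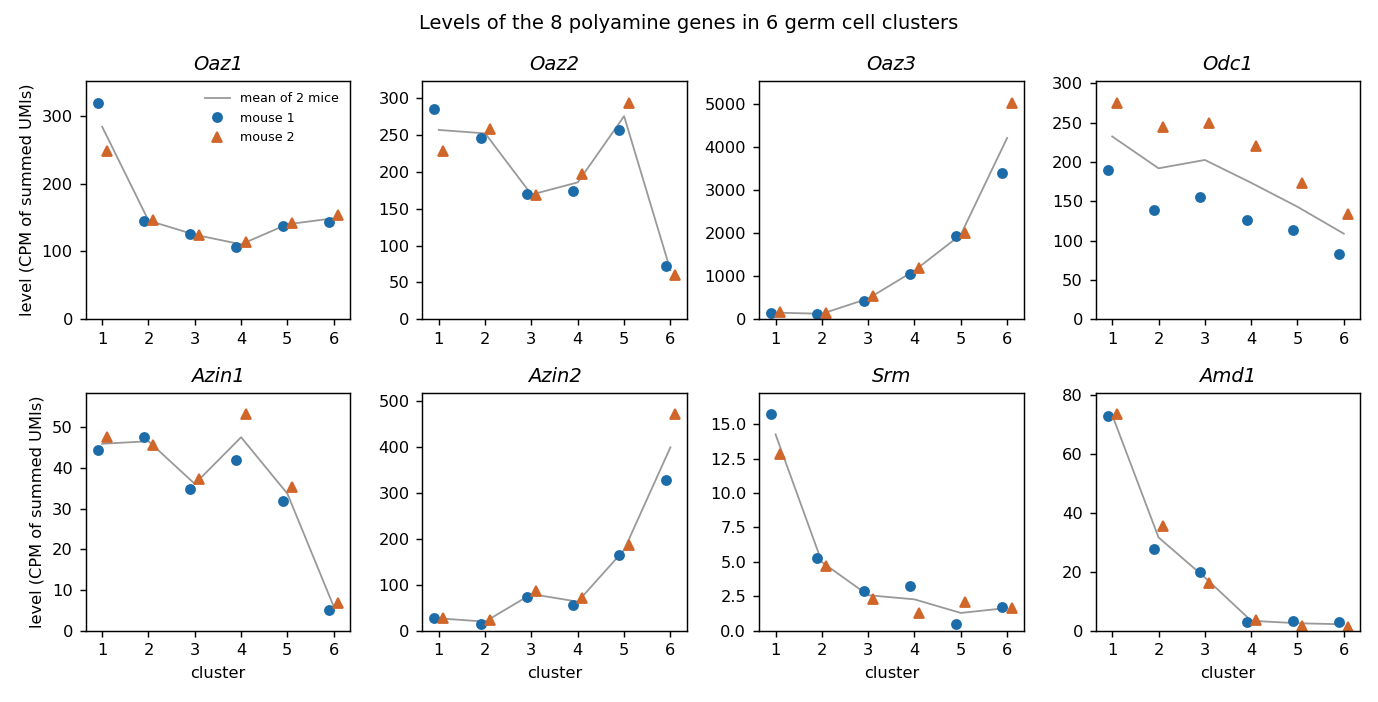
Level of each of the 8 genes (y axis, CPM of summed UMIs, each panel with its own scale from 0) in clusters 1 to 6 (x axis), with mouse 1 as circles, mouse 2 as triangles and a line through the mean of both. Oaz3 and Azin2 are highest in cluster 6, Srm and Amd1 in cluster 1, and Odc1 is higher in mouse 2 than in mouse 1 in every cluster shown.

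Between neighbouring clusters, 21 of 40 member comparisons passed edgeR's quasi-likelihood test at a Benjamini-Hochberg adjusted p under 0.05 over all 13881 genes tested. This test scales libraries with TMM, which assumes that most genes keep their level. Clusters differ so widely that the number of members called is to be read against the share of all genes called. From cluster 1 to 2, 3 of 8 members were called (50.5% of all genes), from 2 to 3, 5 of 8 (63.1%), from 3 to 4, 4 of 8 (46.6%), from 4 to 5, 4 of 8 (44.6%), and from 5 to 6, 5 of 8 (39.4%). Beside these backgrounds, the counts alone are no result about the members. On total UMIs, the part of all called genes that were higher moved from 51.4% to 39.8% at the step from 1 to 2, from 55.8% to 40.2% at 3 to 4, from 52.7% to 30.6% at 4 to 5 and from 40.8% to 14.5% at 5 to 6. With DESeq2 it was 36.4% at the first and 53.0% at the last of these steps. The p-values rest on 2 littermates with 1 library each, and the edgeR fit estimates their spread largely from other genes. It treats the sums of 1 mouse as independent of each other. The p-values therefore do not measure the spread between the littermates alone.

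Oaz3 was at 112 CPM in mouse 1 and 138 CPM in mouse 2 in cluster 2. It reached 411 and 546 CPM in cluster 3, 1058 and 1196 CPM in cluster 4, 1932 and 1994 CPM in cluster 5, and 3388 and 5029 CPM in cluster 6. Each cluster from 3 on lay above the one before it in both mice without overlap. In CPM, cluster 6 exceeded cluster 2 by 30.2-fold in mouse 1 and 36.5-fold in mouse 2. These folds and the step from cluster 2 to 3 rest on cluster 2 UMIs that are not read as expression, as given below. Without scaling, Oaz3 had 3.81 and 4.69 UMIs per cell in cluster 2, 45.9 and 51.7 in cluster 5 and 42.7 and 68.4 in cluster 6, where cells had fewer UMIs in all. On this scale the order of clusters 5 and 6 was reversed in mouse 1. The 4 steps from cluster 2 onward had log2 changes of 1.9997 ± 0.20 (SE), 1.48 ± 0.19, 1.31 ± 0.19 and 1.68 ± 0.19, with adjusted p of 6.6e-09, 8.8e-07, 4.0e-06 and 2.2e-07 in edgeR. All 4 were called in each of the 10 fits, this one included, that differed in tool, scaling, filter, block, cells or clustering. From cluster 1 to 2 the log2 change was -0.03 ± 0.20 (adjusted p = 0.93 in edgeR).

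Oaz3 UMIs were found in cells outside the spermatids too. The levels of 146 and 157 CPM in cluster 1 and of 112 and 138 CPM in cluster 2 are therefore not read as expression there. Sertoli-like cells, which should lack Oaz3, were at 124 CPM in mouse 1 (9 UMIs in 6 cells) and at 1227 CPM in the only such cell of mouse 2 (15 UMIs). Spermatogonium-like cells were at 260 and 205 CPM from 8 and 9 UMIs. Prm1, the protamine of condensing spermatids, stood at 1074 to 2967 CPM in clusters 1 and 2, and all 13 markers of late spermatids had UMIs in both clusters, summing to 3140 to 7310 CPM against 80330 to 212696 CPM in clusters 5 and 6. Without the 25 cells called as doublets, Oaz3 in cluster 1 was at 109.6 CPM in mouse 1 and 152.5 CPM in mouse 2. In cluster 3, late markers summed to 7655 and 6816 CPM. Oaz3 there reached 53.7 and 80.2 UMIs per 1000 late marker UMIs, against 19.97 to 43.9 in clusters 1 and 2. On the same scale, clusters 5 and 6 were at 15.9 to 27.5. Sertoli-like cells were at 21.2 and 67.9 and spermatogonium-like cells at 47.1 and 39.5, from the few UMIs given above. Leydig-like cells were lower than all of these in both mice. The values of cluster 3 thus overlapped those of the Sertoli-like cells. The part of RNA from late spermatids in the early values was not tested.

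Oaz2, the second widely expressed antizyme gene, was at 286 and 229 CPM in cluster 1 and at 246 and 259 CPM in cluster 2. It stood at 170 and 169 CPM in cluster 3 and at 174 and 198 CPM in cluster 4. It was highest in cluster 5 at 258 and 294 CPM, where the mice overlapped those of clusters 1 and 2, and lowest in cluster 6 at 72.5 and 60.5 CPM. It fell from cluster 2 to 3 by 0.52 ± 0.13 on the log2 scale (adjusted p = 0.0017 in edgeR), rose from cluster 4 to 5 by 1.08 ± 0.14 (adjusted p = 6.0e-07 in edgeR) and fell into cluster 6 by 1.48 ± 0.15 (adjusted p = 2.8e-08 in edgeR). In CPM the last step was a 3.55-fold drop in mouse 1 and a 4.86-fold drop in mouse 2. The step from cluster 3 to 4 was smaller, at 0.39 ± 0.13 (adjusted p = 0.022 in edgeR), and it was called in 7 of 10 fits. From cluster 1 to 2 Oaz2 did not pass (adjusted p = 0.14 in edgeR), and it was called in 2 of 10 fits. These had the mouse as a replicate block (log2 change 0.26, adjusted p = 0.048 in edgeR) or no gene filter (0.46, adjusted p = 0.024 in edgeR). Over the 10 fits the change ran from -0.073 to 0.46. In CPM, Oaz2 fell at this step in mouse 1 and rose in mouse 2.

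Oaz1, the first antizyme gene described and expressed in most tissues, was at 320 and 249 CPM in cluster 1. It fell to 145 and 146 CPM in cluster 2, stood at 125 and 124 CPM in cluster 3 and at 107 and 115 CPM in cluster 4, and was at 138 and 142 CPM in cluster 5 and 144 and 154 CPM in cluster 6. The drop from cluster 1 to 2 was called (log2 change -0.69 ± 0.13, adjusted p = 0.00013 in edgeR) in all 10 fits. The rise from cluster 4 to 5 of 0.85 ± 0.14 (adjusted p = 1.3e-05 in edgeR) and from cluster 5 to 6 of 0.67 ± 0.14 (adjusted p = 0.00034 in edgeR) were each called in 9 of 10 fits. Scaled to total UMIs, the step from 5 to 6 was 0.09 (adjusted p = 0.64 in edgeR). The spermatogonium-like cells had the highest Oaz1 level in the series, with 1397 CPM in 3 cells of mouse 1 and 1593 CPM in 4 cells of mouse 2, which is 4.37-fold and 6.41-fold above cluster 1. Sertoli-like cells followed at 703 and 982 CPM and Leydig-like cells at 400 and 737 CPM, on 4 to 51 UMIs per mouse and without a test.

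Counted together, the share of antizyme UMIs that came from Oaz3 was 19.4% and 24.7% in cluster 1 and 22.3% and 25.4% in cluster 2. It was 58.2% and 65.1% in cluster 3, 79.0% and 79.3% in cluster 4, and 83.0% and 82.1% in cluster 5. In cluster 6 it was 94.0% and 95.9%, or 94.95% ± 1.34 (SD). Oaz2 was the leading antizyme transcript in cluster 2, with 48.9% and 47.7% of antizyme UMIs, and Oaz1 led in cluster 1, with 42.6% and 39.2%. The differences between clusters 2, 3, 4 and 6 were larger than the difference between the mice, while clusters 1 and 2 overlapped. These shares do not depend on how libraries are scaled. They do count the early Oaz3 UMIs, which in clusters 1 and 2 are not read as expression.

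**Figure D2:**
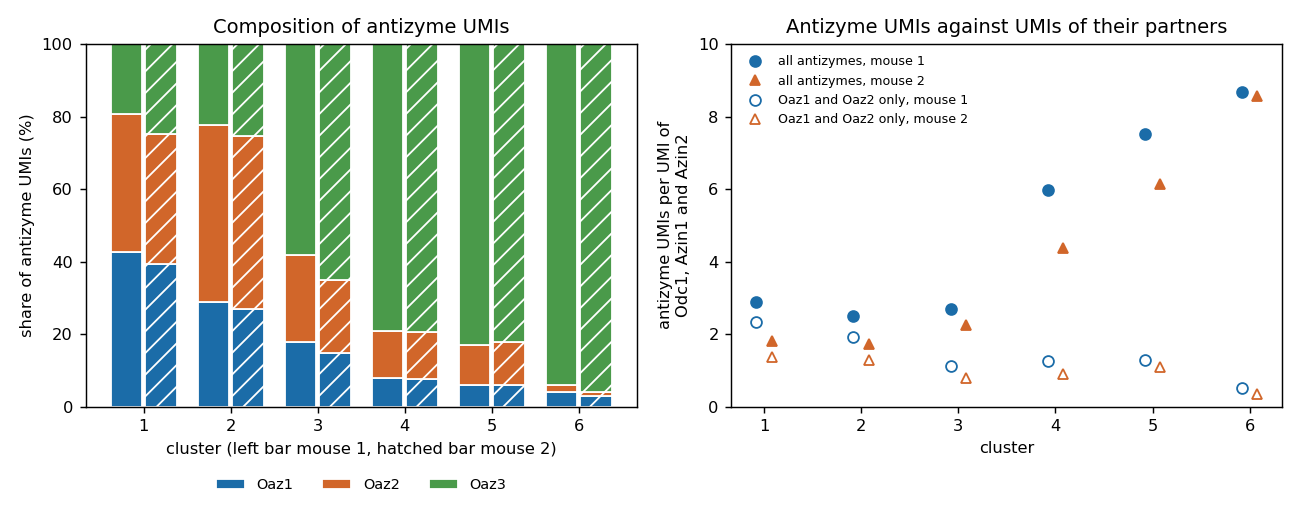
Left, share of antizyme UMIs (y axis, %) from Oaz1, Oaz2 and Oaz3 in clusters 1 to 6 (x axis), with plain bars for mouse 1 and hatched bars for mouse 2. Right, antizyme UMIs per UMI of Odc1, Azin1 and Azin2 (y axis) for all antizymes (filled) and for Oaz1 and Oaz2 alone (open): with Oaz3 the ratio reaches 8.67 and 8.57 in cluster 6, and without it 0.520 and 0.351.

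Odc1, the enzyme that antizymes bind, was at 189 CPM in mouse 1 and 275 CPM in mouse 2 in cluster 1. In the same order it was at 139 and 245 CPM in cluster 2, 155 and 250 CPM in cluster 3, 126 and 221 CPM in cluster 4, 113 and 173 CPM in cluster 5 and 83.2 and 134 CPM in cluster 6. None of its 5 steps between neighbouring clusters was called in any of the 10 fits, and neighbouring clusters overlapped between the mice. Within each mouse the order from cluster 3 to cluster 6 was the same, each lower than the one before in CPM. With TMM the log2 changes over these 3 steps were 0.02, 0.24 and 0.17, of the opposite sign. Their SE of 0.29 to 0.31 was larger than that of Oaz1 and Oaz2 (0.13 to 0.15). With the mouse as a replicate block, the SE of these 3 Odc1 steps was 0.11 to 0.13. None was called there either (adjusted p of 0.93, 0.079 and 0.26 in edgeR).

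Azin1, the widely expressed antizyme inhibitor gene, kept between 34.9 and 53.2 CPM in clusters 1 to 4 of both mice. It was at 31.9 and 35.4 CPM in cluster 5 and at 5.08 and 6.80 CPM in cluster 6, from 18 and 21 UMIs. This last drop, 6.28-fold in mouse 1 and 5.21-fold in mouse 2, had a log2 change of -1.94 ± 0.25 (adjusted p = 1.1e-06 in edgeR) and was called in all 10 fits. Azin1 also rose from cluster 3 to 4 by 0.65 ± 0.16 (adjusted p = 0.0020 in edgeR, 9 of 10 fits). From cluster 2 to 3 it did not pass (adjusted p = 0.092 in edgeR). It did with the mouse as a replicate block (log2 change -0.32, adjusted p = 0.018 in edgeR) and on total UMIs (-0.37, adjusted p = 0.035 in edgeR), in 2 of 10 fits.

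Azin2, the inhibitor gene known from testis and brain, rose in separate steps. It was at 26.8 and 27.3 CPM in cluster 1 and 15.7 and 24.1 CPM in cluster 2, then at 73.1 and 86.7 CPM in cluster 3. It stood at 55.8 and 70.8 CPM in cluster 4, 165 and 187 CPM in cluster 5 and 327 and 471 CPM in cluster 6. Azin2 reached 9.55 and 12.7 UMIs per 1000 late marker UMIs in cluster 3, against 3.67 to 7.69 in clusters 1 and 2. Sertoli-like cells were at 9.41 and 4.52, from few UMIs. Spermatogonium-like cells, at 11.8 and 0, and Leydig-like cells, at 11.9 and 8.81, overlapped the values of cluster 3. The Azin2 levels of clusters 1 and 2 are therefore not read as expression. The part of RNA from late spermatids was not tested. The rises into clusters 3, 5 and 6 were called, with log2 changes of 2.08 ± 0.20 (adjusted p = 5.3e-09 in edgeR), 1.98 ± 0.20 (adjusted p = 1.2e-08) and 1.76 ± 0.19 (adjusted p = 8.5e-08), and all 3 were called in each of the 10 fits. The step from cluster 3 to 4 was not called (log2 change -0.09 ± 0.19, adjusted p = 0.76 in edgeR), which is where Oaz3 rose by 1.48. Azin2 made up 10.3% and 7.8% of the UMIs of Odc1, Azin1 and Azin2 in cluster 1 and 78.8% and 76.9% in cluster 6, while the part of Odc1 went from 72.7% and 78.7% to 20.03% and 22.0%.

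Antizyme UMIs outnumbered those of the 3 partner genes in every large cluster. The ratio was 2.88 and 1.81 in cluster 1, 2.49 and 1.73 in cluster 2 and 2.68 and 2.24 in cluster 3, where the mice of these clusters overlapped. It was 5.98 and 4.38 in cluster 4, 7.51 and 6.15 in cluster 5 and 8.67 and 8.57 in cluster 6. Without Oaz3, it went from 2.32 and 1.36 in cluster 1 to 0.520 and 0.351 in cluster 6. The ratio compares different genes, and how well each transcript was captured was not tested. Its early values include the Azin2 UMIs and, with Oaz3, the Oaz3 UMIs that in clusters 1 and 2 are not read as expression.

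**Figure D3:**
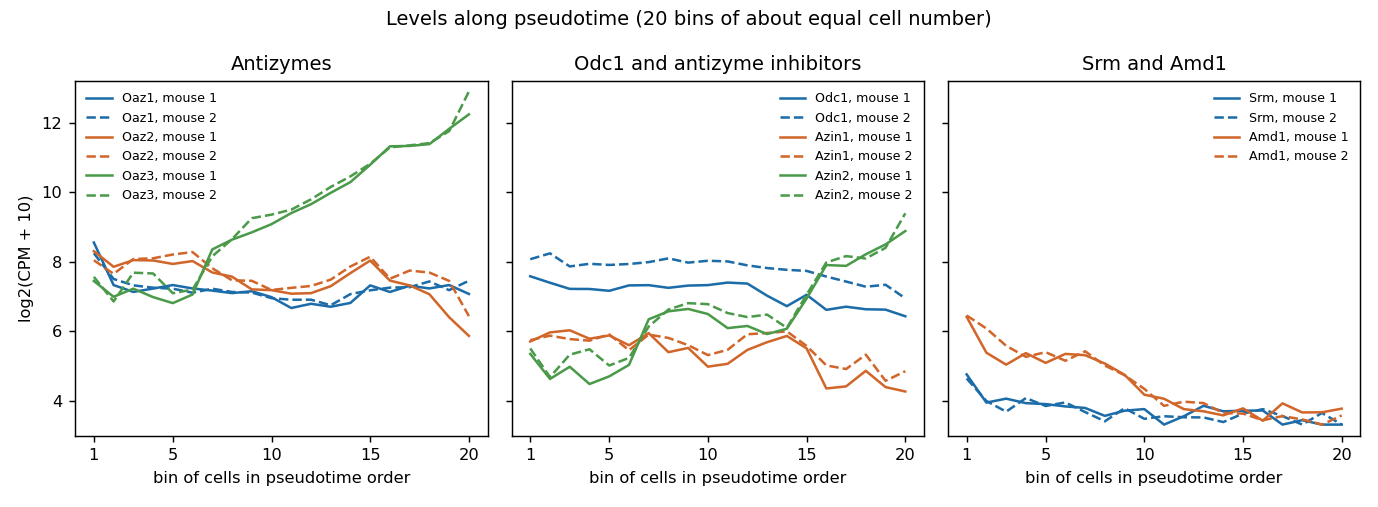
Level as log2(CPM + 10) (y axis) of the antizymes (left), of Odc1, Azin1 and Azin2 (middle) and of Srm and Amd1 (right) in 20 bins of cells in pseudotime order (x axis), with mouse 1 as solid and mouse 2 as dashed lines. Oaz3 and Azin2 leave their early level at bin 7, Azin2 pauses until bin 14 and then rises again, and Odc1 of mouse 2 runs above that of mouse 1.

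The order of single cells gave a finer view than the clusters. In means of both mice, Oaz3 was at 131 CPM in bin 6 and 297 CPM in bin 7, the first bin after those that held cells of cluster 2. It reached 1322 CPM in bin 14 and 6225 CPM in bin 20. Azin2 went from 25.3 CPM in bin 6 to 66.0 CPM in bin 7 and 96.4 CPM in bin 9, back to 58.2 CPM in bin 14, and from there to 564 CPM in bin 20. Amd1 was at 31.5 CPM in bin 7 and at 9.27 CPM in bin 10. Oaz2 had a first low of 134 CPM in bin 11 and a later high of 263 CPM in bin 15. It then fell to its lowest level, 62.8 CPM, in bin 20. Bins 15 to 20 held cells of both clusters 5 and 6, so the clusters are not simply earlier and later in this order. Within bins 15 to 17 alone, Oaz2 was at 263 and 287 CPM in cells of cluster 5 and at 90.1 and 85.7 CPM in cells of cluster 6, and Azin1 at 28.4 and 29.7 CPM against 3.02 and 8.57 CPM. Oaz3 in the same bins was at 1905 and 2026 CPM in cluster 5 and at 2919 and 3112 CPM in cluster 6. Clusters 5 and 6 thus differed in these genes within the same range of bins, over which their cells were spread differently. Bin 15 held 49 cells of cluster 5 and 23 of cluster 6, bin 16 held 38 and 87, and bin 17 held 46 and 80. The part of the difference that follows the order within these bins was not tested.

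Amd1 was at 73.0 and 73.5 CPM in cluster 1, 27.7 and 35.7 CPM in cluster 2, 20.01 and 16.2 CPM in cluster 3 and 3.01 and 3.80 CPM in cluster 4. In clusters 5 and 6 it was at 1.30 to 3.38 CPM, from 4 to 11 UMIs per mouse. The first 3 steps were called, with log2 changes of -0.96 ± 0.19 (adjusted p = 0.00022 in edgeR), -0.75 ± 0.19 (adjusted p = 0.0016) and -2.12 ± 0.27 (adjusted p = 6.5e-07), in all 10 fits. From cluster 1 to 4 the drop in CPM was 24.3-fold in mouse 1 and 19.4-fold in mouse 2. Amd1 cannot be told apart from Amd2 with certainty, because 397 of 403 windows of 98 bases in the last 500 bases of its transcript also occur in Amd2. Amd2 itself received 178 UMIs, and reads that fit both genes may have been left uncounted.

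Srm was the least detected member, with 216 UMIs in all. It was at 15.7 and 12.8 CPM in cluster 1 from 17 and 31 UMIs, at 5.28 and 4.70 CPM in cluster 2 and at 2.88 and 2.28 CPM in cluster 3. In clusters 4 to 6 it had 1 to 14 UMIs per mouse, and a difference among them was not detectable at this depth. The drop from cluster 1 to 2 was 2.98-fold in mouse 1 and 2.73-fold in mouse 2 (log2 change -1.21 ± 0.34, adjusted p = 0.0048 in edgeR, called in all 10 fits). The drop from 2 to 3 of 0.92 ± 0.35 on the log2 scale (adjusted p = 0.026 in edgeR) was lost with DESeq2 (adjusted p = 0.095) and after thinning each cell to 5000 UMIs.

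Clusters 5 and 6 as 1 group were compared with clusters 1 and 2 in the same edgeR fit. All 8 members passed, 5 of them higher (41.3% of all genes) and 3 lower (42.7%). Oaz3 was higher by 5.62 ± 0.16 (adjusted p = 2.4e-19) and Azin2 by 4.75 ± 0.16 (adjusted p = 4.2e-18), while Amd1 was lower, with a log2 difference of -3.11 ± 0.23 (adjusted p = 1.9e-11), as was Srm with -1.21 ± 0.38 (adjusted p = 0.0053), all by edgeR. With mouse 2 left out and TMM factors kept, the value of Srm was -2.10, and with mouse 1 left out -0.83. For Amd1 these values were -2.56 and -3.84. The Srm call was lost after thinning (adjusted p = 0.46 in edgeR). Azin1 was lower with -0.49 ± 0.16 (adjusted p = 0.0067 in edgeR), a call lost with DESeq2 (adjusted p = 0.064) and after thinning (adjusted p = 0.064 in edgeR). For Oaz1 (0.75 ± 0.09), Oaz2 (0.34 ± 0.10) and Odc1 (0.47 ± 0.21) the direction depended on the scaling. With TMM and the mouse as a replicate block, Odc1 was at 0.48 ± 0.09 (adjusted p = 4.7e-08 in edgeR). That p draws its spread mostly from other genes, so it overstates what 2 mice can show. The Odc1 call (adjusted p = 0.044 in edgeR) was lost with another seed (0.053), without a gene filter (0.62) and after thinning (0.13), and the Oaz2 call (adjusted p = 0.0038 in edgeR) without a gene filter (1.0) and after thinning (0.93). TMM factors ran from 1.66 in cluster 1 to 0.488 in cluster 6, and without them, on total UMIs, the log2 differences of Oaz1, Oaz2 and Odc1 were -0.49, -0.90 and -0.77, each called in that direction. On that scale 2 members were higher and 6 lower, and 34.6% of the called genes were higher, against 49.2% with TMM. The median of all genes was at -0.10 with TMM and at -1.32 on total UMIs. Relative to it Oaz1, Oaz2 and Odc1 were higher and Azin1, Srm and Amd1 lower. A change of scaling moves the genes and their median almost together, so this place is the same under both by construction. It does not decide a direction.

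**Figure D4:**
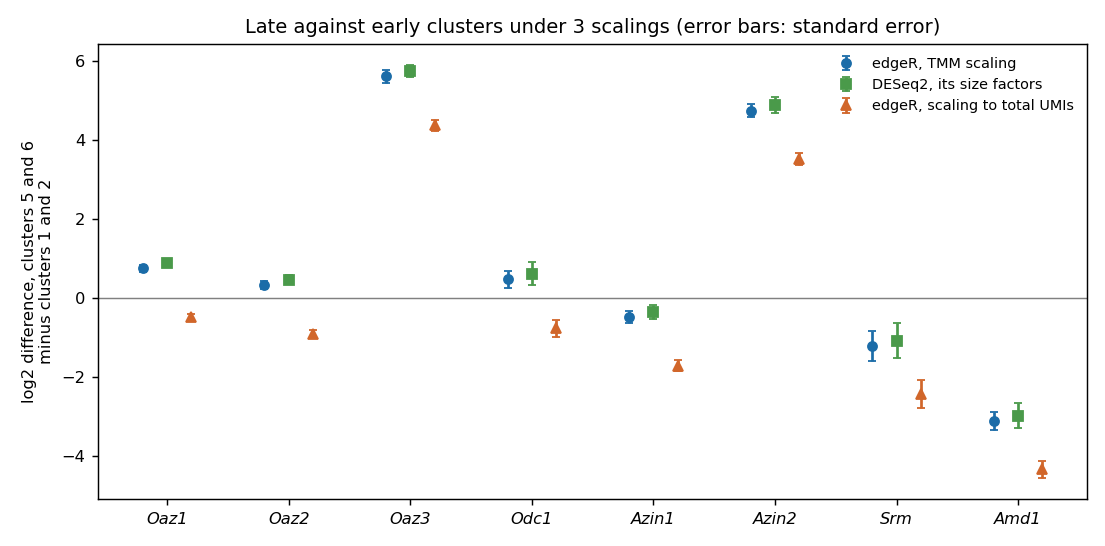
Log2 difference of clusters 5 and 6 minus clusters 1 and 2 (y axis) for the 8 genes (x axis), with standard errors, from edgeR with TMM scaling, DESeq2, and edgeR scaled to total UMIs. Oaz3 and Azin2 lie above 0 and Azin1, Srm and Amd1 below 0 under all 3, whereas Oaz1, Oaz2 and Odc1 are above 0 with TMM and DESeq2 and below 0 on total UMIs.

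Odc1 was higher in mouse 2 than in mouse 1 in all 6 clusters. Its CPM ratio was 1.45 (95% counting interval 1.24 to 1.71) in cluster 1 and 1.53 to 1.76 in the other clusters. In single cells of cluster 2, mouse 1 had a median of 3 Odc1 UMIs and mouse 2 a median of 6, at median totals of 19866 and 22017 UMIs. Genes were compared where they had at least 20 UMIs in every cluster, which left 5269 genes, 6 of them members, with a median ratio of 1.00277 over genes and clusters. By the first rule used, a ratio of at least 1.5 in all 6 clusters, 0 of the 6 members were higher in mouse 2 (0.323% of all genes) and 0 were lower (0.0759%). With TMM-scaled CPM, Odc1 passed that rule, with a lowest ratio of 1.60, as 1 of 6 members (0.399% of all genes higher), and 0 were lower (0.0190%). A looser rule, a ratio above 1 in all 6 clusters, was chosen after the 1.5-fold rule had been seen to pass no member in CPM. Under it Oaz3, Odc1 and Azin2 were higher in mouse 2, 3 of 6 members (8.35% of all genes), and 0 were lower (8.54%).

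The size of the Odc1 ratio was placed among all genes after its values were seen and is given as a description. The smallest of its 6 ratios was exceeded by that of 19 of the 5269 genes. For Azin2 in cluster 1 the ratio was 1.02, with an interval of 0.648 to 1.63. Oaz3 in cluster 6 was 1.48-fold (1.45 to 1.52) and Azin2 1.44-fold (1.33 to 1.56) higher in mouse 2. The late markers summed to 182972 CPM in that cluster of mouse 2 against 212696 CPM in mouse 1. Within cluster 6, Oaz3 was at 2919 and 3112 CPM in bins 15 to 17 of mouse 1 and mouse 2, and at 3825 and 6286 CPM in bins 18 to 20. Azin2 was at 269 and 350 CPM and then at 380 and 552 CPM. Over all cells of a bin, Oaz3 was at 3621 and 3455 CPM in bin 19. In bin 20, with 48 and 78 cells, it was at 4830 and 7621 CPM. Whether the gap follows the place of the cells in the order was not tested. With 1 animal on each side there is no test, and animal and library cannot be told apart.

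**Figure D5:**
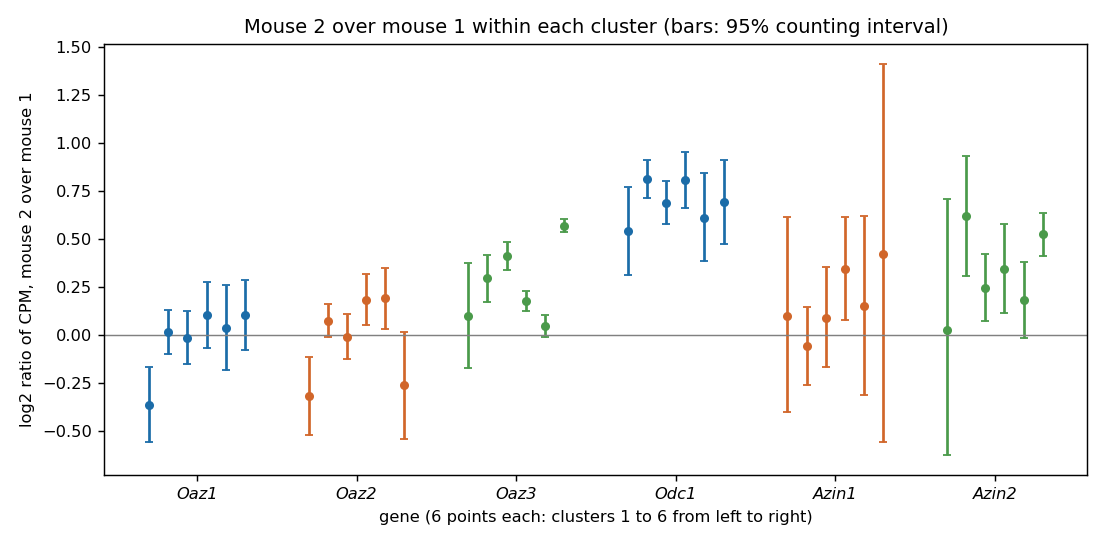
Log2 ratio of the CPM of mouse 2 over mouse 1 (y axis) for 6 genes (x axis), with 1 point for each of clusters 1 to 6 from left to right and 95% counting intervals. All 6 points of Odc1 have intervals above 0, from a ratio of 1.45 to 1.76, while Oaz1 and Oaz2 lie on both sides of 0.

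Of the 22 other genes of polyamine metabolism and hypusine formation, 14 had enough counts to be tested. In clusters 5 and 6 against 1 and 2, 2 of the 14 were higher (41.3% of all genes) and 11 lower (42.7%) by edgeR, with a median log2 difference of -1.84 against -0.10 over all genes. On total UMIs 2 were higher (30.5% of all genes) and 12 lower (57.6%). The remaining 8 genes had too few UMIs to pass the gene filter. That filter asks for counts in only a few sums, so a gene can pass through the clusters where it is high. Amd2 had 43 and 90 UMIs in clusters 1 and 2, but 0 and 3 in clusters 5 and 6. The number of lower genes and their median are therefore no result about the list. Without the filter, 3 of 21 were higher (22.5% of all genes) and 12 lower (25.6%). Eif5a, the translation factor that carries hypusine, a residue made from spermidine, was at 1412 and 1355 CPM in cluster 1 and 168 and 170 CPM in cluster 5, and at 210 and 218 CPM in cluster 6. Its late against early difference was -1.15 ± 0.09 (adjusted p = 7.3e-11 in edgeR). Dohh, which completes hypusine, was at 73.0 and 84.7 CPM in cluster 1, 22.3 and 25.0 CPM in cluster 2, 41.7 and 48.8 CPM in cluster 3 and 3.67 to 8.07 CPM in clusters 5 and 6. Its rise from cluster 2 to 3 (1.001 ± 0.16, adjusted p = 9.9e-06 in edgeR) was 1 of 4 among the 14 genes that were higher at that step (31.9% of all genes), while 8 were lower (31.2%).

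Mat2a, which makes S-adenosylmethionine, the substrate of Amd1, went from 171 and 153 CPM in cluster 1 to 4.51 and 2.91 CPM in cluster 6 (late against early -3.00 ± 0.16, adjusted p = 3.1e-14 in edgeR). Slc3a2, the heavy chain of an amino acid transporter linked to polyamine export, went from 118 and 99.9 CPM in cluster 1 to 4.80 and 4.86 CPM in cluster 6. Its late against early difference was -1.93 ± 0.17 (adjusted p = 3.0e-10 in edgeR). It was highest in Leydig-like cells, at 1301 CPM in 1 cell of mouse 1 and 1891 CPM in 4 cells of mouse 2, without a test. Satl1, a relative of the spermidine acetyltransferase gene Sat1, took the opposite course. It was at 0.96 and 0.94 CPM in cluster 2, 17.8 and 20.9 CPM in cluster 3 and 35.3 and 34.3 CPM in cluster 6 (late against early 6.09 ± 0.21, adjusted p = 7.2e-18 in edgeR). The second gene that was higher was Eif5a2, a relative of Eif5a with 331 UMIs, named here after its values were seen. It was at 6.47 and 2.89 CPM in cluster 1 and 9.03 and 14.6 CPM in cluster 6. Its late against early difference, with TMM and over clusters 5 and 6 against 1 and 2, was 3.14 ± 0.35 (adjusted p = 1.9e-08 in edgeR).

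The genes most like each member over the 20 bins were found from log2(CPM + 10), taking the lower Pearson's r of the mice among 7895 genes with at least 500 UMIs. The bins of a mouse share 1 library, and neighbouring bins hold similar cells, so r describes the course and has no p. Oaz3 was closest to Gapdhs (r = 0.998), Clpb and Smcp (both 0.996), of which Gapdhs encodes the sperm form of a glycolytic enzyme and Smcp a protein of the sperm mitochondrial capsule. Azin2 was closest to Rundc3a (0.976), Vasp (0.962) and Mical3 (0.957), and its r with Oaz3 was 0.933. Odc1 was closest to Ndufs3 (0.946), a subunit of respiratory complex I, K230010J24Rik and Utp11 (both 0.938). Amd1 was closest to Senp3 (0.964), Mtl5 and Rbx1 (both 0.959). Azin1 had no gene above 0.872 (Bola3), followed by Me1 (0.869) and Impa1 (0.861). Oaz1 was closest to Chd3os (0.851), Tmed9 (0.834) and Babam1 (0.817), and Oaz2 to Selenoi (0.836), Dctn4 (0.784) and Gpatch2 (0.781). Srm was too sparse to be placed.

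The genes lie apart in the genome. In GRCm38, Oaz3 spans chr3:94432414-94443915 on the minus strand and overlaps Tdrkh and Mrpl9 on the opposite strand. The antisense genes Gm49077 and Gm15904 overlap Azin1 (chr15:38487427-38519266) and Azin2 (chr4:128930233-128962442). On the same strand, Mir1982 overlaps Oaz1, Gm22748 overlaps Odc1 and Mir6951 overlaps Azin1. Overlap was taken over whole gene spans, and whether exons overlap was not tested. Oaz1 is at chr10:80826656-80829290, Oaz2 at chr9:65668001-65690300, Odc1 at chr12:17544794-17551505, Srm at chr4:148591503-148594993 and Amd1 at chr10:40287458-40302186. In the last 500 transcript bases, 117 of 403 windows of 98 bases in Oaz1 also occur in Oaz1-ps and 32 of 403 in Odc1 also occur in Gm7993, so some of their reads may have been left uncounted. For Oaz2, Oaz3, Azin1, Azin2 and Srm no window was shared.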

How the data were processed

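The values deposited by the authors are raw UMI counts, whole numbers for each row and cell. The submitters' processing notes name Cell Ranger 2.0.0, bcl2fastq 2.17.1.14 and mm10, and the study's methods describe alignment to a repeat-masked GRCm38 genome from Ensembl release 89 plus repeat sequences, and a reduction of reads in the deeper library to equal depth per cell. The 1182 repeat rows stayed in the totals and were not tested. All 2552 cells were kept, and no barcode was shared between the mice. Cells were given to mice by the ending of the barcode.

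The members, the gene lists and the tests were chosen with earlier results of these data known. Counts were scaled to the median total, transformed as log2(1 + value), and each of 27760 rows was centred and scaled. K-means (K = 9, 10 restarts, seed 42) ran on 10 principal components. Clusters were ordered by diffusion pseudotime (30 neighbours) and split into 20 bins. A cluster was named after the class whose markers had the highest mean score, their log2 level standardized across clusters. In cluster 1 this score was 0.940 for early and 0.873 for pachytene or later spermatocytes. Markers at 1.5 times the level of all cells or more were counted as raised. Doublets (25 cells) were called with scanpy's scrublet and kept. UMIs were summed per mouse for clusters with at least 20 cells in each mouse, giving 12 sums of 1082152 to 10425603 UMIs, all in 1 fit. Changes were tested with the quasi-likelihood method of edgeR (TMM, filterByExpr, Benjamini-Hochberg over all genes). It was tested on simulated counts in which few genes changed and the sums had no effect of the mouse. That run cannot show how the method behaves where clusters differ as widely as here. Sums of 1 mouse come from the same animal, so their numbers pair them. Deviations of 1 mouse from the cluster means correlated with r of 0.0227 to 0.229 over 15 pairs of clusters (median 0.1, 13881 genes). The block was therefore fitted as an alternative. Its p-values draw their spread mostly from other genes and are smaller than 2 mice alone could give. Intervals (95%) are exact and cover counting error only. With 2 mice, an exact permutation test cannot pass any threshold and was not used.

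All 8 members are named. Of the wider list, genes with at least 500 UMIs are named. The 3 most alike genes are named for members with at least 500 UMIs. Alternatives were DESeq2, other scalings, no gene filter, the block, no doublets, the members kept in the clustering, seed 1, thinning, means over cells, leaving out the 20 highest rows, TMM-scaled mouse ratios and each mouse alone. Leaving out a mouse with TMM factors kept, and the rule of a mouse ratio above 1 in place of 1.5, were added after the data were seen. Software was edgeR 4.0.16, DESeq2 1.42.0 (under R 4.3.3), scanpy 1.11.5 and scikit-learn 1.9.0 (under Python 3.11.15).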

Additional observations from a re-analysis of the deposited data

Results flagged for a closer look

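Rows that name copies of the members, and that the comparisons did not use, held more than the 3 counts that a count of 0 allows. Oaz1-ps had 43 UMIs, in 43 cells, against 8363 for Oaz1. Gm7993, which shares sequence with the end of the Odc1 transcript, had 15 UMIs. Amd-ps3 had 11 UMIs and Oaz2-ps had 10 UMIs. Amd-ps1 and Amd-ps4 had 1 and 2 UMIs and Amd-ps5 had 0 UMIs, which do not pass that limit. No group of samples was large enough for a search for outlying samples.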

How the results depend on the processing

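Of the 40 member comparisons between neighbouring clusters, 18 to 23 were called under the alternatives, against 21. The paired fit, with the mouse as a replicate block, called 23, adding Oaz2 from cluster 1 to 2 and Azin1 from cluster 2 to 3, and it changed no other member call. Thinning each cell to 5000 UMIs left 4 of 8 members called in late against early clusters, 7 of 8 wider genes tested there and 17 of 40 wider comparisons between neighbours, with fewer genes tested. On total UMIs without TMM, the late against early differences turned for Oaz1 (-0.49), Oaz2 (-0.90) and Odc1 (-0.77). Each mouse alone, in CPM, gave -0.61 to -0.37, -0.96 to -0.87 and -0.77 to -0.74 for them, and none turned once the TMM factors were applied. Without a gene filter Oaz2 was at -0.022. Values not called in either fit were not counted as turned. Azin1 from cluster 4 to 5 was 0.02 and not called, but -0.50 on total UMIs and -0.52 without a filter, both called. Srm from cluster 2 to 3 was 0.21 after thinning. The ratio of antizyme to partner UMIs in cluster 6 was 10.5 as a mean over cells with both, against 8.62. In cluster 1 this mean was 4.61 and 3.02 in mouse 1 and mouse 2, against 2.88 and 1.81. The share of Oaz3 in cluster 6 was 94.0% to 95.9% with either mouse alone and 93.6% to 96.02% per mouse over the means over cells and another seed. The cause of these changes was not tested, other than the change of scaling itself. Of the 6 members compared between the mice, 0 were at least 1.5-fold higher in mouse 2 in all clusters, 1 (Odc1) was so with TMM-scaled CPM, and 3 were higher by any amount, a rule chosen after the 1.5-fold count of 0 was known. Depth limits Srm (216 UMIs) and late Amd1, and the sequence shared with Amd2 limits Amd1 in every cluster.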
